A study of Homo sapiens with 4 samples.

Results

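The genes FHIT, WWOX, MACROD2, IMMP2L and DPYD are 5 of the longest human genes, and each lies at or near a common fragile site. They were examined for regions in which H3K4me1, the monomethylated form of lysine 4 of histone H3, was called higher after depletion of LSD2 in HepG2 cells, an established line from a human liver tumour. The study sequenced 4 libraries, each the only one of its group. They were H3K4me1 ChIP from cells given an siRNA against LSD2 (gene KDM1B), H3K4me1 ChIP from control cells given an siRNA against GL3 luciferase, and an input from LSD2-depleted and from control cells. All cells were HepG2 grown in high-glucose medium and transfected with siRNA. The deposited list holds 160601 distinct peaks that the authors called with the knockdown ChIP library as treatment and the control ChIP library as its background. Members were the distinct peaks that overlap the span of 1 of these 5 genes on hg19, and there were 356 of them, 0.222% of the list. The 1 Mb on either side of each gene, called its lower and higher flank by coordinate, held 638 peaks.

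The list has only chromosome, start and end, so a peak here has a place and a width but no height, fold or p-value. It was called in 1 direction, and regions higher in control cells were not analysed here. With 1 library in each group there is no test between conditions, and every interval below is a 95% interval for counting error that treats peaks as independent. The file header gives the knockdown and control ChIP libraries run names with different dates, so the run and the condition cannot be told apart. The number of reads in each library is unknown. A stretch without a peak may therefore be unchanged, lower or too thinly covered. Copy number in these cells was not examined, so loss of a stretch was not tested either.

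H3K4me1 is deposited at enhancers and beside promoters, and it also spreads at lower levels over the bodies of transcribed genes. LSD2 removes methyl groups from mono- and dimethylated lysine 4 of histone H3 and is known to associate with the bodies of active genes. Common fragile sites are stretches that break when DNA replication is slowed, and many coincide with very long genes, in which transcription and replication have to share the template. Deletions at such sites are frequent in tumours. The 5 genes have little else in common. FHIT encodes a diadenosine triphosphate hydrolase, WWOX an oxidoreductase with WW domains, and both are candidate tumour suppressors. MACROD2 encodes a hydrolase that removes ADP-ribose from proteins. IMMP2L encodes a peptidase of the inner mitochondrial membrane, and DPYD encodes dihydropyrimidine dehydrogenase, the first enzyme of pyrimidine breakdown, which is active in liver and degrades fluorouracil.

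The starts of FHIT and IMMP2L had a peak close by, and the start of DPYD had none nearby. The sequences show the 250 bases before the RefSeq start of each (GRCh38.p14, minus strand, 5′ to 3′), at chr3:61251453-61251702 for FHIT, chr7:111562493-111562742 for IMMP2L and chr1:97921060-97921309 for DPYD. These positions belong to another build than the peaks and are not to be set against them. Capitals mark matches on either strand to the GC box GGGCGG, the CCAAT box CCAAT and AAGATGG, a core bound by YY1, searched after the sequences had been seen.
FHIT: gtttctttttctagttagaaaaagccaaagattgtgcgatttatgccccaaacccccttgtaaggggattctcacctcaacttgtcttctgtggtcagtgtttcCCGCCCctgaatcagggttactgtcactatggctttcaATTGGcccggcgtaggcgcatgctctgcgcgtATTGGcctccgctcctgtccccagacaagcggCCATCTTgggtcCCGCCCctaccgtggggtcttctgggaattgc
IMMP2L: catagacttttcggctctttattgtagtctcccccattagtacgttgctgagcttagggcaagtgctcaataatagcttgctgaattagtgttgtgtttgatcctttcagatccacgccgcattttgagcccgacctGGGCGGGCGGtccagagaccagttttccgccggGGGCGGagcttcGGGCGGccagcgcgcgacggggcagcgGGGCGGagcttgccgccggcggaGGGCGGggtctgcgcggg
DPYD: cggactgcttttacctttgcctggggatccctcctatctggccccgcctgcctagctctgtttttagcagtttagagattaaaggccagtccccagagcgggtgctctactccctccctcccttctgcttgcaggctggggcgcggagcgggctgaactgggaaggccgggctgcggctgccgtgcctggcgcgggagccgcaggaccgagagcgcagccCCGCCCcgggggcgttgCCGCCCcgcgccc

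The FHIT sequence held 11 CG dinucleotides and 54.0% G or C. IMMP2L held 24 and 61.6%, DPYD 20 and 68.8%, and the sequences of WWOX and MACROD2, whose nearest peaks lay at distances in between, 27 and 67.6% and 29 and 73.2%. It held 2 GC boxes, 2 CCAAT boxes and 1 AAGATGG match, whereas IMMP2L held 6 GC boxes, a pair of which overlap, DPYD 2, WWOX 1, and MACROD2 2 with 1 CCAAT box. Among the 35116 RefSeq promoters in the table, cut to the same 250 bases, 42.6% held a GC box, 32.01% a CCAAT box and 3.70% AAGATGG, and the median was 11 CG dinucleotides. The peak beside FHIT lay 0.728 kb beyond the higher edge of the gene span, on chromosome 3 from 61237729 to 61238376, and was 648 bp wide. It is therefore not counted among the members. The peak beside IMMP2L lay 2.21 kb inside the gene (chromosome 7, 111199426 to 111199794, 369 bp). From the starts of MACROD2, WWOX and DPYD the nearest peak was 6.76, 8.59 and 19.3 kb away, inside the gene in each case. Gene edges are given to 1 kb and were not matched to a transcript start, so these distances share that uncertainty. Over the whole list the median gap between neighbouring peaks was 10.1 kb. Whether these starts differ in nearness from other places was not tested.

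FHIT was the sparsest gene of the 5 and the 1 gene whose density differed from that of both flanks together beyond counting error. FHIT (chromosome 3, 59.735 to 61.237 Mb) held 45 peaks, or 30.0 per Mb (interval 21.9 to 40.1). DPYD (chromosome 1, 97.543 to 98.387 Mb) held 41 peaks, or 48.6 per Mb (34.9 to 65.9). IMMP2L (chromosome 7, 110.303 to 111.202 Mb) held 50 peaks, or 55.6 per Mb (41.3 to 73.3). These 3 genes are transcribed toward lower coordinates. MACROD2 (chromosome 20, 13.976 to 16.034 Mb), the longest of the 5 at 2.06 Mb, held 142 peaks, or 69.0 per Mb (58.1 to 81.3). WWOX (chromosome 16, 78.133 to 79.247 Mb) held 78 peaks, or 70.0 per Mb (55.4 to 87.4). In that order from FHIT upward, neighbours from DPYD to WWOX had overlapping intervals. The interval of FHIT overlapped that of DPYD and lay below those of the other 3.

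Each chromosome has its own average, so a gene was also set against the 1 Mb windows of its chromosome. FHIT stood at 0.509 of the chromosome 3 density of 58.9 peaks per Mb, and only 3 of the 196 windows of chromosome 3 held fewer peaks than FHIT did per Mb. DPYD stood at 0.879 of its chromosome, MACROD2 at 0.995, IMMP2L at 1.04 and WWOX at 1.11. For these 4 genes, between 35.2% (DPYD) and 71.6% (WWOX) of the windows of the same chromosome held fewer peaks. The chromosomes themselves ranged from 53.5 peaks per Mb for chromosome 7 to 69.3 for chromosome 20. Chromosome 3, which carries FHIT, was not the sparsest of the 5, while MACROD2 lay on the densest of them.

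**Figure D1:**
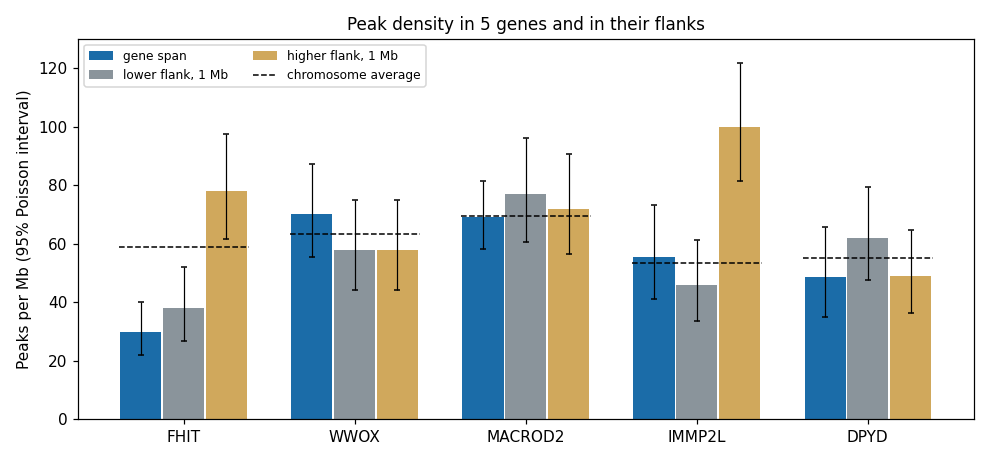
Bars give peaks per Mb in each gene span, in its lower 1 Mb flank and in its higher 1 Mb flank, with 95% Poisson intervals, and dashed lines give the average of the chromosome. FHIT, at 30.0 per Mb, lies below its higher flank (78) and its chromosome (58.9), and the higher flank of IMMP2L stands at 100 per Mb.

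Against their own flanks, the genes together were slightly sparser, and FHIT carried most of that. Over all 5 genes there were 55.5 peaks per Mb (49.9 to 61.6) in the genes and 63.8 (58.9 to 69.0) in the flanks, a ratio of 0.870 (0.762 to 0.992). Without FHIT the ratio was 0.970 (0.840 to 1.12), and its interval then included 1. FHIT alone had a ratio of 0.517 (0.358 to 0.735). The ratios of the other 4 were 0.762 for IMMP2L, 0.875 for DPYD, 0.926 for MACROD2 and 1.21 for WWOX, and each interval included 1. These intervals reached down to 0.541 (IMMP2L) and up to 1.62 (WWOX), so for these genes ratios as far from 1 as that were not excluded. The whole list averaged 56.2 peaks per Mb. Peaks were not spread as independent ones would be, with 5.61 ± 3.49 peaks (SD) per 100 kb over the whole list. The variance per 100 kb divided by the mean was 1.22 to 1.38 in FHIT, WWOX, MACROD2 and DPYD. In IMMP2L it was 0.914, and independent peaks would give about 1. The intervals may therefore be too narrow, and that of the pooled ratio ended just below 1.

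FHIT and IMMP2L each lay between unlike flanks. FHIT held 30.0 peaks per Mb, against 38 in its lower flank and 78 in its higher flank, the side on which the gene starts. It was 0.384 of its higher flank (0.260 to 0.561) and 0.788 of its lower flank (0.501 to 1.25), so the contrast rests on the higher side. The sparse stretch ran on below the gene, with 36, 40 and 52 peaks per Mb in the first 3 steps of 0.5 Mb, and then reached 80. Above the gene the first 2 steps held 70 and 86 peaks per Mb, and the next 3 held 52, 46 and 50, below the chromosome average of 58.9. The next protein-coding gene on that side in the gene table is PTPRG, a receptor tyrosine phosphatase. IMMP2L held 55.6 peaks per Mb, against 46 in its lower flank and 100 in its higher flank, of which it was 0.556 (0.388 to 0.789). The farther 0.5 Mb of that higher flank, from 111702001 to 112202000, held 64 peaks, or 128 per Mb. The next protein-coding gene above IMMP2L in the gene table is DOCK4, a guanine nucleotide exchange factor. Its position was not set against these peaks. In the other 3 genes the ratio of higher to lower flank was between 0.790 and 1, and each interval included 1.

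**Figure D2:**
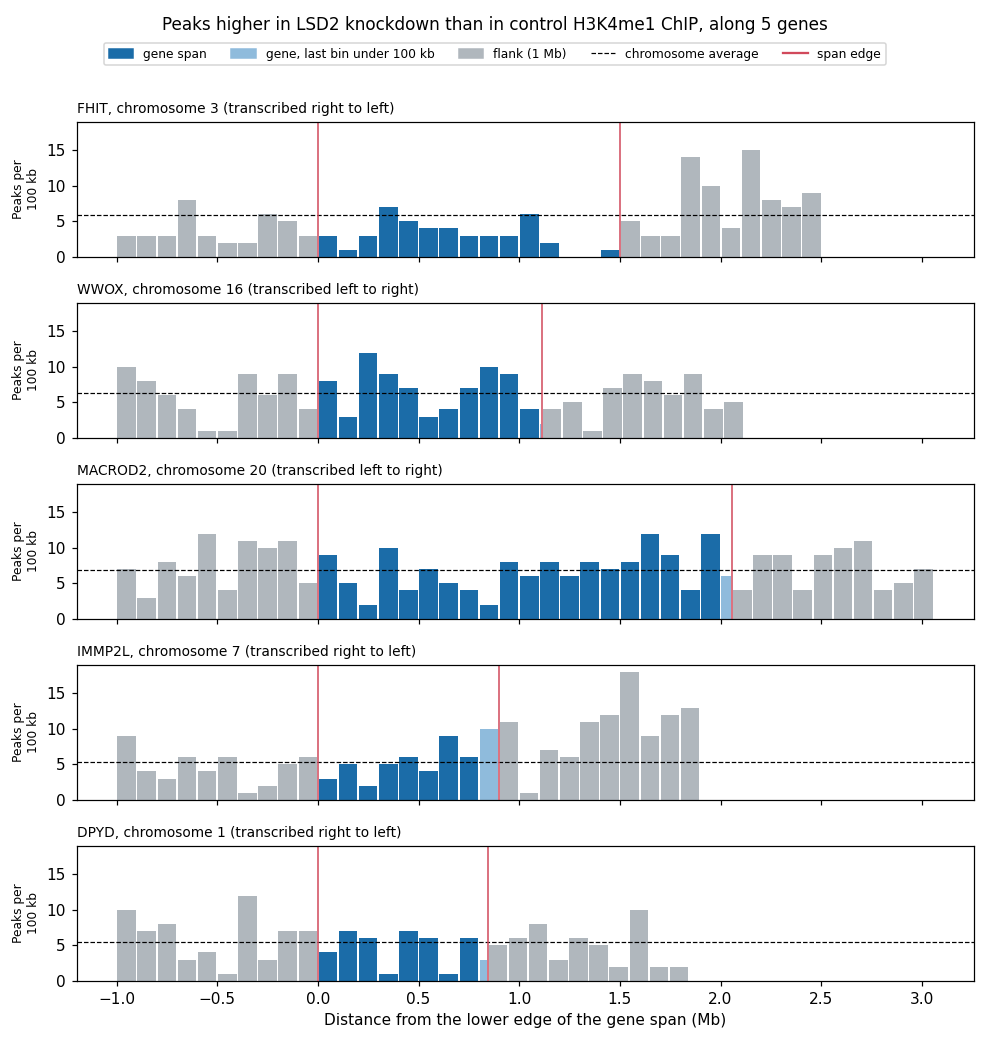
Each panel gives peaks per 100 kb along 1 gene (dark blue) and its 1 Mb flanks (grey), by distance from the lower edge of the gene in Mb; light blue is the last stretch of a gene, shorter than 100 kb, and the dashed line is the chromosome average. FHIT has 2 empty bins near its higher edge, and IMMP2L is fuller toward its higher edge and the flank beyond it.

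Along FHIT, the part next to the start of the gene held the fewest peaks. In steps of 100 kb from its lower edge, FHIT held 3, 1, 3, 7, 5, 4, 4, 3, 3, 3, 6, 2, 0, 0 and 1 peaks. The fullest step was from 60035001 to 60135000, and the 2 empty ones ran on from 60935001. Over the whole list, 3.66% of 100 kb bins held no peak, and none of the other 4 genes had an empty one. In 3 parts of equal length from the gene's start, FHIT held 18.0, 33.95 and 37.95 peaks per Mb. Divided at its midpoint, the ratio of start side to end side was 0.607 (0.312 to 1.15), an interval that included 1. The longest stretch of FHIT without a peak was 275.3 kb, from 60895518 to 61170854, which is 18.3% of the gene. Only 128 of the 160577 gaps between neighbouring peaks in the list were at least as long, a share of 0.0797%, and 2 of these were on chromosome 3, this one included. A single peak of 148 bp, from 61170855 to 61171002, separated this gap from another 66.2 kb without a peak up to the gene edge. Leaving out the length of the gap, FHIT held 36.7 peaks per Mb, and its ratio to the flanks was 0.633 (0.438 to 0.900). Copy number along FHIT was not tested.

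In the other 4 genes the longest peak-free gap was 106.1 kb in DPYD (98131582 to 98237685), 90.7 kb in WWOX (78231310 to 78322010), 83.7 kb in MACROD2 (14754426 to 14838099) and 76.4 kb in IMMP2L (110372927 to 110449373). Gaps at least that long made up between 1.05% (DPYD) and 2.49% (IMMP2L) of all gaps in the list. The longest of many gaps in a gene is set here against single gaps, so a small share follows partly from that choice. The same holds for the gap of FHIT.

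WWOX and MACROD2 were alike in their mean per step of 100 kb and in the spread between steps. WWOX held 6.91 ± 3.05 peaks (SD over 11 steps). The lowest count was 3 peaks, in 2 steps (78233001 to 78333000 and 78633001 to 78733000), and the highest was 12, from 78333001 to 78433000. MACROD2 held 6.80 ± 2.88 peaks over 20 steps, with 2 from 14176001 to 14276000 and 12 first reached from 15576001 to 15676000. Steps over the whole list averaged 5.61 ± 3.49 peaks.

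IMMP2L held more peaks toward its start and MACROD2 more toward its end, but neither ratio had an interval that excluded 1. IMMP2L had 86.8, 46.7 and 33.4 peaks per Mb in its first, middle and last part of equal length. Divided at its midpoint, it held 32 peaks on the start side and 18 on the end side, a ratio of 1.78 (0.968 to 3.36). Its emptiest full step held 2 peaks (110503001 to 110603000) and its fullest 9 (110903001 to 111003000). MACROD2 had 59.8, 62.7 and 84.6 peaks per Mb in the same order. It held 59 peaks on the start side of its midpoint and 83 on the end side, a ratio of 0.711 (0.5003 to 1.004). DPYD had 22 peaks on the start side and 19 on the end side, WWOX 40 and 38, and FHIT 17 and 28, with intervals that include 1. DPYD steps ranged from 1 peak (first from 97843001 to 97943000) to 7 (first from 97643001 to 97743000).

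Peaks within the 5 genes stood farther from each other than peaks in the flanks. Of the 356 peaks in the genes, 151 had another peak within 5 kb, or 42.4% (Wilson interval 37.4 to 47.6%), against 57.5% in the flanks (53.7 to 61.3%) and 52.2% over the whole list. In each of the 5 genes the share was below that of its own flanks. It was 8.89% in FHIT (3.51 to 20.7%), against 47.4% in its flanks (38.6 to 56.4%). In FHIT only 4 of 45 peaks had such a neighbour. In MACROD2 it was 53.5% against 69.1% in the flanks, in IMMP2L 42.0% against 64.4%, in DPYD 29.3% against 48.6% and in WWOX 48.7% against 52.6%. Intervals of gene and flanks did not overlap in FHIT and in IMMP2L, and they overlapped in the other 3. Without FHIT the share was 47.3% in the genes (41.8 to 52.8%), against 59.8% in the flanks (55.5 to 63.9%). MACROD2 had a density of 0.926 of its flanks. That ratio was 0.517 in FHIT and 0.762 in IMMP2L, the latter with an interval that includes 1. The part of density in the share was not tested. The distance of 5 kb was taken from earlier work on this list.

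**Figure D3:**
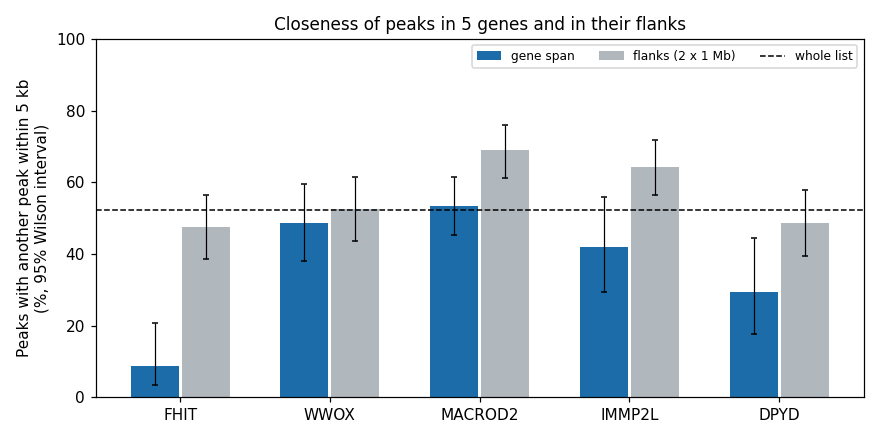
Bars give the percentage of peaks with another peak within 5 kb in each gene and in its flanks, with 95% Wilson intervals, and the dashed line is the whole list (52.2%). The bar of each gene is lower than that of its flanks, and FHIT (8.89%) is the lowest.

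By filled bins, as by peaks per Mb, the 5 genes together were close to the whole list. Of 639 bins of 10 kb in the 5 genes, 273 held part of a peak, or 42.7% (38.9 to 46.6%), and over the whole list the share was 41.3%. FHIT had 28.0% of its bins filled (21.4 to 35.7%) and DPYD 34.5% (25.2 to 45.2%). IMMP2L had 46.1%, MACROD2 50.2% and WWOX 52.3%.

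The share of wide peaks was lower in DPYD and MACROD2 than over the list, with intervals that overlapped those of their flanks. Median width was 302.5 bp over the 5 genes (285 to 324), against 315.5 bp in the flanks (304 to 326) and 316 bp over the list. Peaks of 396 bp or wider, the upper quartile of the list, made up 19.4% in the genes (15.6 to 23.8%), 22.1% in the flanks (19.1 to 25.5%) and 25.1% of the whole list. By gene the share was 9.76% in DPYD (4 of 41 peaks), 17.6% in MACROD2, 20% in FHIT, 24% in IMMP2L and 24.4% in WWOX. The interval of DPYD (3.86 to 22.6%) lay below the share of the list. That of FHIT (10.9 to 33.8%) included it, and that of MACROD2 ended just below it, at 24.7%. In the flanks the share was 17.1% for DPYD (11.2 to 25.2%) and 22.8% for MACROD2 (16.8 to 30.2%). The widest peak was 559 bp in MACROD2 (15319075 to 15319633), 607 bp in FHIT (60775016 to 60775622), 652 bp in IMMP2L (111157997 to 111158648) and 674 bp in DPYD (97801622 to 97802295). Flanks of these 4 genes reached 762 to 1490 bp. WWOX held the only 2 peaks of 1 kb or more in the 5 genes. They were 0.562% of the 356 peaks, near the 0.899% of the whole list, and the flanks of the 5 genes also held 2.

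WWOX held the best covered 20 kb stretch of the 5 genes. On chromosome 16 from 79018018 to 79032781, within 14.8 kb, lay 6 consecutive peaks of 947, 2140, 366, 227, 372 and 161 bp. Together they covered 4213 bp, or 21.1% of a 20 kb stretch. Only 20 of the 143019 bins of 20 kb in the list, 0.0140%, were covered to that extent, though the bins have fixed edges and the stretch was placed to start at a peak. The peak of 2140 bp, from 79019303 to 79021442, was among the 22 widest of the list and among the 3 widest of chromosome 16. The other peak over 1 kb, 1269 bp from 78329775 to 78331043, lay beyond the longest gap of WWOX. A peak of 213 bp (78322011 to 78322223) stood between the gap and it. The best covered 20 kb of the other genes held between 979 bp (FHIT) and 1931 bp (MACROD2). By covered length, peaks took up 2.67% of WWOX and 1.75% of its flanks, and in the other 4 genes the gene was the less covered, from 0.899% in FHIT against 1.88% in its flanks to 2.06% in MACROD2 against 2.61%.

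**Figure D4:**
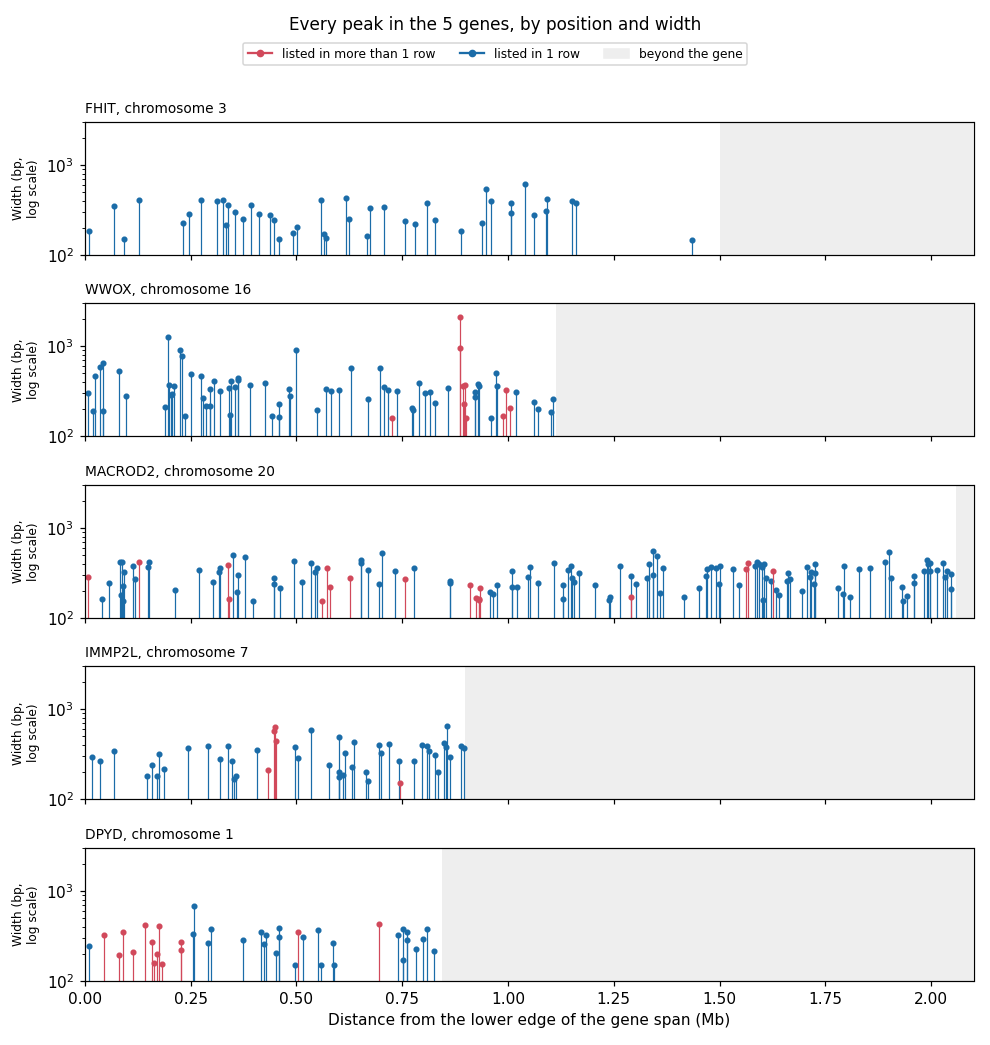
Every peak in the 5 genes is drawn by its distance from the lower edge of the gene (Mb) and its width (bp, log scale), in red where the list holds it in more than 1 row. WWOX has the only 2 peaks over 1 kb, the wider one (2140 bp) in a red group toward its far end, and the right part of FHIT is empty but for 1 peak of 148 bp.

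The deposited list writes some peaks in several identical rows, and the 5 genes differed in how often. In DPYD 14 of 41 peaks were listed more than once (34.1%), in WWOX 10 of 78 (12.8%), in MACROD2 18 of 142 (12.7%) and in IMMP2L 5 of 50 (10.0%). In FHIT it was 0 of 45 peaks, which allows a share of up to about 6.67%. That bound is 3 peaks over the total, an approximation and not a Wilson limit. The flanks held 6 repeated peaks of 116 for FHIT and 16 of 116 for WWOX. For MACROD2 they held 3 of 149, for IMMP2L 10 of 146 and for DPYD 2 of 111. Over the 5 genes the share was 13.2% (10.1 to 17.1%), against 5.80% in the flanks (4.24 to 7.89%) and 10.7% over the whole list. Without DPYD the share in the genes was 10.5%. Of the 47 repeated peaks in the genes, 38 stood next to another repeated peak and 9 between peaks listed once. Repeated peaks were thus not independent of each other, and the intervals of these shares may be too narrow. DPYD had 12 in a row from 97588554 to 97770338, in the part of the gene farthest from its start. WWOX had 6 in a row, which are the compact group described above. MACROD2 had 5 in a row from 14887132 to 14909474. IMMP2L had 4 in a row from 110736988 to 110754660, including the only peak of the 5 genes listed 3 times (110753263 to 110753893, 631 bp). These 4 peaks were also the best covered 20 kb of IMMP2L, with 1864 bp. In the gene table, LRRN3 lies wholly within IMMP2L and FLRT3 wholly within MACROD2, both encoding leucine-rich repeat proteins of the cell membrane. That table lists 8 genes of any kind overlapping DPYD, 15 overlapping MACROD2, 6 overlapping IMMP2L, 9 overlapping WWOX and 11 overlapping FHIT. What a repeated row stands for was not tested.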

How the data were processed

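Per the labels' protocols, crosslinked HepG2 chromatin was sonicated, precipitated and sequenced on semiconductor sequencers. The submitters' processing notes name BWA and hg19. Software versions: not given in the sources used here. Per the file headers, the authors trimmed reads, removed duplicates and called peaks with MACS, the LSD2 siRNA library against the GL3 siRNA library, with a fragment length of 128 bp, a p-value cutoff of 1e-05 and an enrichment factor of 32. Neither input is named in the call. The deposited unit is peak positions in 3 columns, with no score. Removal of duplicates and the fragment length limit how high and how narrow a peak can be.

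Identical rows (180505 in all) were counted as 1 peak. Gene spans were given to 1 kb on hg19, a peak belonged to a span it overlapped, and no peak crossed a gene edge. Positions count from 1. Chromosome averages and bins run from first to last peak without peak-free gaps over 1 Mb. Intervals are exact Poisson (densities), exact Clopper-Pearson (ratios), Wilson (shares) and binomial order statistics (medians), all at 95%. Gene names, promoter sequences and strands came from RefSeq tables of GRCh38.p14. Python 3.11.15 with scipy 1.17.1 was used, and the counting was tested on simulated peaks. The members, lists and named features (widest peak, nearest peak to an edge, longest gap, fullest and emptiest 100 kb step) were chosen with earlier results of these data known. The neighbour distance, the best covered 20 kb, the division into 3 parts, the promoter motifs and the share of wide peaks were added after the values had been seen. Other genes at fragile sites, 1 of them in the original selection, are not reported here.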

Additional observations from a re-analysis of the deposited data

How the results depend on the processing

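Of 138 alternative values for 28 results, 122 stayed within the 95% interval of the reported value, 16 moved beyond it and 0 changed direction where an interval excluded 1. Membership by midpoint, counting every row, merging peaks under 1 kb apart, covered bases, flanks of 0.5 or 2 Mb and leaving out 50 kb at each end moved none. Within those intervals, counting every row took the ratio to the flanks from 0.875 to 1.13 in DPYD and from 0.926 to 1.02 in MACROD2. It took the ratio of start side to end side from 1.16 to 0.774 in DPYD and from 1.05 to 0.833 in WWOX. These ratios crossed 1, and the intervals of their main values include 1. Restricting the list to peaks no narrower than its median gave, by construction, 12.7 peaks per Mb in FHIT, 37.7 in WWOX, 32.1 in MACROD2, 27.8 in IMMP2L and 20.1 in DPYD, longest gaps of 341.5, 119.1, 231.7, 104.6 and 143.8 kb in the same order, and 23.3% of 10 kb bins filled. With those peaks WWOX had 1.68 times the density of its flanks. Against the lower flank only, the ratio was 0.788 for FHIT and 1.21 for IMMP2L. Bins of 5 kb were filled to 24.8% in the genes and 24.8% over the list, and bins of 20 kb to 66.04% and 62.8%, by construction. Leaving out each gene in turn moved the ratio of genes to flanks between 0.803 (without MACROD2 or without WWOX) and 0.970 (without FHIT), and the share of repeated peaks between 10.5% (without DPYD) and 15.1% (without FHIT). No paired analysis was possible because there is a single library per condition. No alternative by score was run, since the list holds none. The unknown depth limits every density.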
